A study of Schmidtea mediterranea with 100 samples.

Results

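The RNA-low gate of the planarian flatworm Schmidtea mediterranea was compared with the G1 gate in bulk RNA, over the 11890 transcripts with at least 5 CPM (reads of a transcript relative to its scaled library) in either library, out of 67386 in the table. Of these, 112 carry a gene name, out of 163 named in all. Both gates came from whole wild-type animals of the asexual clonal strain CIW4, which were dissociated by douncing, stained for DNA (Hoechst) and for RNA (pyronin Y) and sorted by FACS. Each gate is represented by 1 of the 4 bulk libraries among the 100 samples of the series, and the number of animals or cells behind a library is not named in the labels. A difference between the gates therefore cannot be told apart from a difference between these libraries, and no test across replicates was possible.

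Neoblasts, the stem cells of planarians, divide throughout life and give rise to all other cell types. Pyronin Y staining separates cells by RNA content, and a low RNA content is a feature of resting cells in other animals. Cells that leave the neoblast state for the epidermis switch on the prog-1 and prog-2 families, and other neoblasts switch on transcription factors of neural, intestinal or other fates. Signals of the Wnt and Hedgehog pathways pattern the body, and the planarian epidermis, protonephridia and parts of the nervous system carry cilia.

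The RNA-low library held 57385665 counted reads and the G1 library 54070578, with 16.9% and 16.8% of reads in ribosomal RNA. The parts of this total went opposite ways. The 16S transcript held 13.3% of reads in RNA-low and 14.5% in G1, and the more abundant 28S transcript 3.60% and 2.33%. Among transcripts with few reads, a count of 5 reads was the most frequent in RNA-low and 10 in G1. These values were used as a rough number of reads per starting fragment, which gave an estimated 11477133 fragments in RNA-low and 5407058 in G1. Reads were scaled by the trimmed mean of M values and given as CPM, so every level is relative to its library and is not an amount per cell. Fewer cells of a type and less RNA per cell cannot be told apart. The ratio is log2 of RNA-low over G1 after adding 0.5 CPM to each level, and the 95% intervals beside it are exact binomial intervals on estimated fragments for the CPM ratio without that addition. They cover counting error only. A transcript was called higher or lower where it differed by at least 2-fold and its interval on reads excluded equality. The neoblast genes piwi-1, piwi-2, piwi-3 and bruli were abundant in both libraries, with a summed level of 7439 CPM in RNA-low and 5725 CPM in G1. The muscle gene titin stood at 4.61 CPM in RNA-low and 2.88 CPM in G1, and a mucin of secretory cells at 0.19 CPM in each.

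Of the kept transcripts, 9880 were not called between the gates. The background was 16.9% of the kept transcripts called in either direction, 7.12% called higher in RNA-low and 9.78% called lower, and the median log2 ratio of all kept transcripts was 0.10. The transcripts called higher took 7.26% of the reads outside ribosomal RNA in RNA-low and 2.26% in G1. Those called lower took 1.32% in RNA-low and 8.37% in G1, and the early epidermal progeny transcripts alone made up 0.232% in RNA-low and 3.92% in G1. Of the 100 most abundant transcripts of each library, 86 were shared, and of the top 1000, 846 were shared. At 4-fold, 111 transcripts were higher and 439 lower in RNA-low, and at 8-fold 20 were higher and 177 lower.

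**Figure D1:**
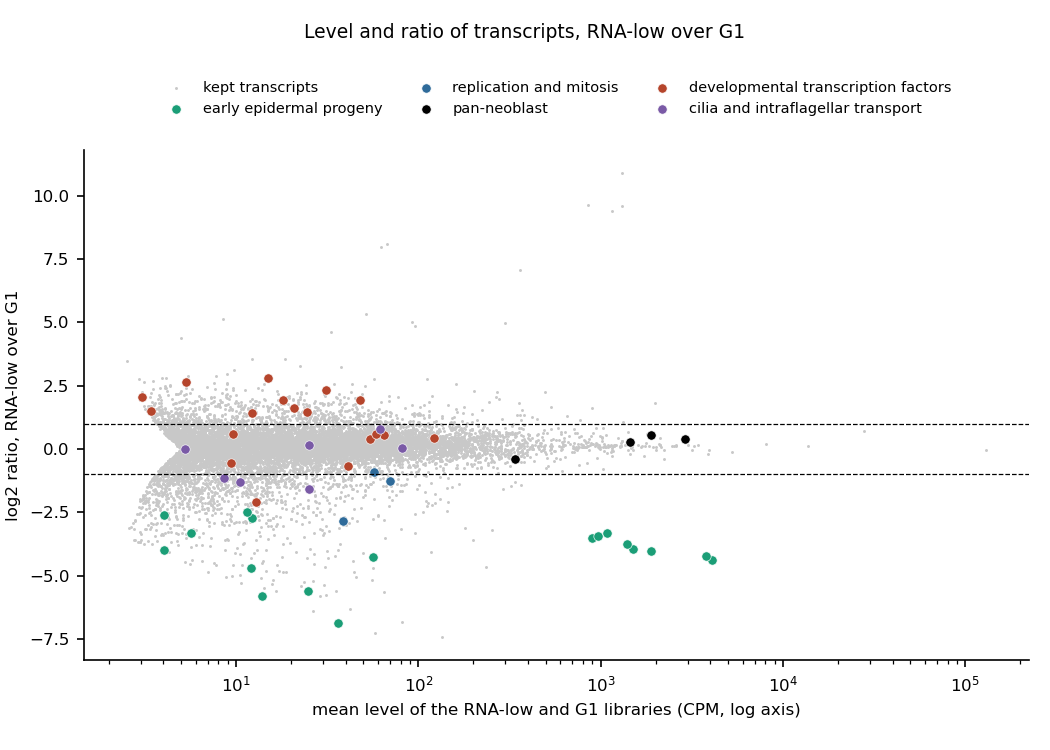
Log2 ratio of RNA-low over G1 after adding 0.5 CPM (vertical) against the mean CPM of both libraries (horizontal, log axis) for 11890 kept transcripts, with 5 gene lists in colour and dashed lines at 2-fold. The progeny transcripts lie below the lower line at every level, and most coloured points above the upper line are transcription factors.

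The share of transcripts called depended on the level. Below a mean of 10 CPM, 10.4% were called higher and 18.9% lower in RNA-low, over 3373 transcripts. Of the 988 calls made there, 335 had passed the 5 CPM filter through RNA-low alone and 603 through G1 alone, so the filter itself favoured calls in this bin. From 20 to 50 CPM the order turned, to 6.79% called higher and 5.52% called lower over 3078 transcripts. At 100 to 500 CPM the shares were 4.66% and 2.58% over 1202 transcripts, and at 500 CPM and above 5.10% and 4.08% over 196. Among the 9841 transcripts with at least 5 CPM in both libraries, 485 were called higher and 423 lower in RNA-low. The median width of the interval on the log2 scale was 1.27 below 10 CPM and 0.097 at 500 CPM and above, so counting error limits the low bins most.

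**Figure D2:**
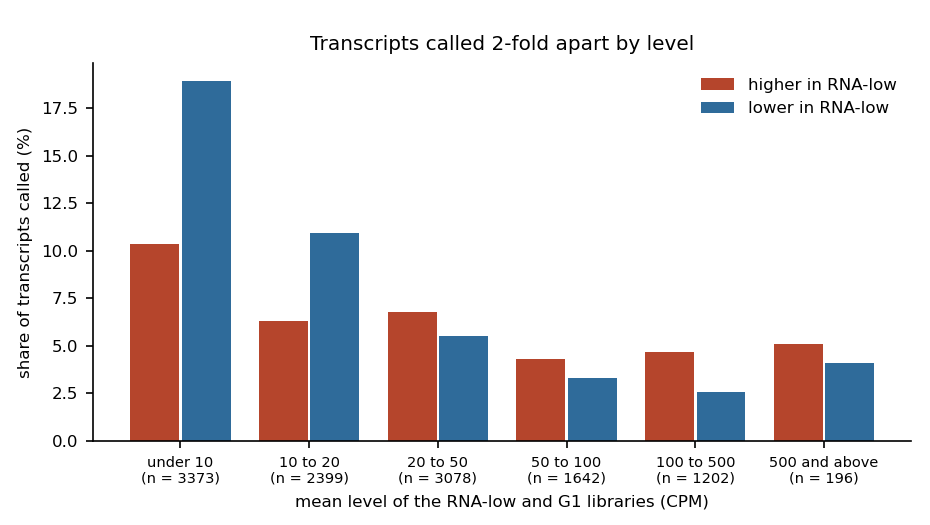
Share of kept transcripts called at least 2-fold higher (red) or lower (blue) in RNA-low, in percent, by the mean CPM of the RNA-low and G1 libraries, with the number of transcripts under each bin. Lower calls outnumber higher ones below 20 CPM, and higher calls outnumber lower ones in the 4 bins above.

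Transcription factors of developmental fates were the largest group of named transcripts higher in RNA-low. Of the 40 named ones, 18 were kept, of which 10 were called higher, 1 was called lower and 7 were not called. Over all kept transcripts, 7.12% were called higher and 9.78% lower. The median log2 ratio of the 18 kept factors was 1.43, against 0.10 for all kept transcripts. Since arx, ascl-1, lmx2 and nerfin-2 passed the filter through RNA-low alone, the filter favoured the calls on them and a high median. Of the 13 factors at 5 CPM or more in both libraries, 6 were called higher and none lower. Over all transcripts at that level in both libraries, 4.93% were called higher and 4.30% lower. Without any filter, 33 of the 40 had a higher level in RNA-low, and the interval lay above equality for 22 and below it for 3, or 55.0% and 7.5%. The same shares were 8.53% and 8.43% over all 64524 transcripts with reads in either library, most of them too low to be resolved, and 34.9% and 24.0% over the kept transcripts. As markers of neurons, COE, elav-2, chat, pc2 and synaptotagmin had been listed, of which the names in the table hold COE and elav-2. Both were called higher in RNA-low, and the part of neural cells in the transcription factor values was not tested.

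Several of the factors called higher have known roles in neurons, while castor, described below with a role in neural lineages, was not called. COE, a transcription factor needed for planarian neurons, had 4520 reads in RNA-low and 1176 in G1, or 76.1 and 19.8 CPM (log2 ratio 1.92, interval 1.66 to 2.23). The proneural gene family member ascl-1 stood at 26.7 CPM in RNA-low and 3.43 CPM in G1 (2.79, interval 2.31 to 3.68). Its level in G1 was below the 5 CPM filter. The homeobox gene arx, which marks ventral-medial neurons in planarians, was at 9.56 CPM in RNA-low and 1.11 CPM in G1 (2.64, interval 1.99 to 4.50). NKX2.1, known from the same region, was at 18.1 CPM in RNA-low and 6.49 CPM in G1 (1.41, interval 0.98 to 2.01). It had also been listed as a marker of cathepsin-positive and parenchymal cells, and their part in its level was not tested. The SoxB family gene soxB stood at 31.7 CPM in RNA-low and 9.89 CPM in G1 (1.63, interval from 1.28 upwards). The family of soxB acts in neural progenitors of other animals.

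Besides these, meis, hb-2, lmx2 and nerfin-2 were among the factors called higher. The TALE homeobox gene meis was at 28.9 CPM in RNA-low and 7.28 CPM in G1 (1.92, interval 1.53 to 2.48). The transcript named hb-2 stood at 52.2 CPM in RNA-low and 10.1 CPM in G1 (2.31, interval 1.99 to 2.78). The LIM homeobox gene lmx2 had 309 reads in RNA-low and 53 in G1 (2.03, interval 1.28 to 4.16), and it dropped below the 5 CPM filter with median-of-ratios scaling. For nerfin-2, whose relative acts in neuronal lineages of Drosophila, there were 313 reads in RNA-low and 93 in G1 (1.48, interval 0.75 to 2.92).

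Other factors were not called or went down. Castor, known from the temporal series of Drosophila neuroblasts, stood at 70.5 CPM in RNA-low and 47.3 CPM in G1 (0.57, interval 0.38 to 0.78). FoxJ1-3 and NKX2.1_Dth-2 were also at 0.57, usf at 0.44 and hnf6 at 0.38. PAX5-1 was at 31.3 CPM in RNA-low and 50.7 CPM in G1 (-0.69, interval -0.92 to -0.47), and a klf transcript was at -0.55. The exception among the calls was NXK2.2_Dth-1, a marker of the gamma class of neoblasts that gives rise to intestine, with 269 reads in RNA-low and 1255 in G1, a 4.30-fold lower level (log2 interval -2.71 to -1.75). It passed the filter through G1 alone. The intestine genes porcnA and porcn-B, which encode porcupine proteins, were not called, at 0.36 and -0.03.

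Of the 22 transcription factors under 5 CPM in both libraries, 18 had a higher level in RNA-low, or 81.8%, against 54.2% of all 52634 transcripts with reads that were not kept. The interval lay above equality for 7 of them, namely foxQ2, hmx-1, a second klf transcript, Mitf1, nkx6.1, PAX6-2 and TCF-3, and below it for none. Over all transcripts not kept, it lay above equality for 2.58% and below it for 4.91%, at a lower level (median of the higher library 0.421 CPM, against 1.22 CPM for the 22 factors). FoxQ2 had 261 reads in RNA-low and 43 in G1 (2.00, interval 1.20 to 4.45), and TCF-3 had 255 in RNA-low and 40 in G1 (2.03, interval 1.23 to 4.60). Both lie just under the filter, as lmx2 and nerfin-2, at 5.20 and 5.27 CPM in RNA-low, lie just above it.

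**Figure D3:**
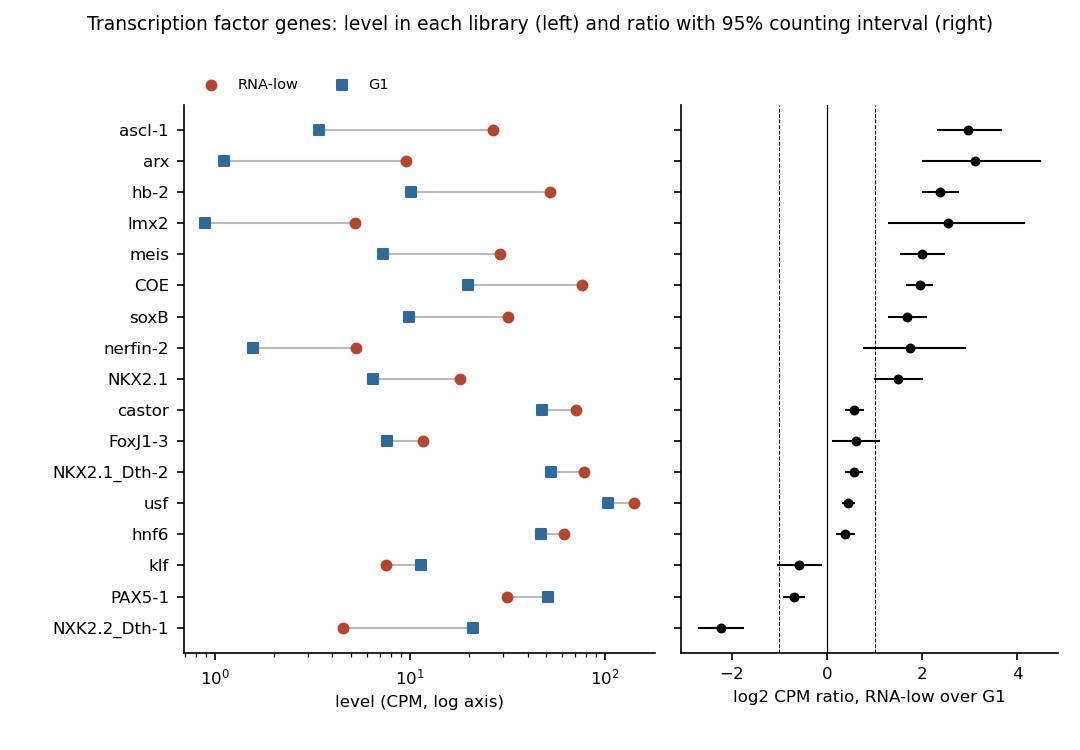
Level in CPM in RNA-low (circles) and G1 (squares, log axis) of 17 of the 18 kept transcription factor transcripts, with the log2 CPM ratio, without added 0.5 CPM, and its 95% counting interval on estimated fragments at the right, where dashed lines mark 2-fold. The upper 9 lie beyond the right dashed line, and NXK2.2_Dth-1 beyond the left one.

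RNA-binding regulators were higher in part. Of 6 named transcripts, all at 5 CPM or more in both libraries, 2 were called higher and none lower, with a median of 0.68. Over all transcripts at that level in both libraries, 4.93% were called higher and 4.30% lower. Musashi proteins bind RNA in stem cells and neural progenitors of other animals, and msi-2 stood at 43.8 CPM in RNA-low and 16.4 CPM in G1 (1.39, interval 1.11 to 1.75). Its relative msi-1 was at 38.9 CPM in RNA-low and 21.4 CPM in G1 (0.84, interval 0.57 to 1.15) and was not called. The neuronal elav family member elav-2 had 63.4 CPM in RNA-low and 27.5 CPM in G1 (1.19, interval 0.96 to 1.46). The gene mex3-1, needed in planarians for progeny to differentiate, was at 921 CPM in RNA-low and 641 CPM in G1 (0.52, interval 0.47 to 0.58). Neither mex3-3 (0.19) nor METTL3, which encodes an RNA methyltransferase (-0.06), was called.

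The Wnt ligands were higher in RNA-low in part. Of 7 named ligands, 3 were kept, and 2 of these were called higher, against 7.12% of all kept transcripts. Of the 2 ligands that passed the filter in both libraries, 1 was called. These are too few for a statement on the ligands as a group. The brain-patterning ligand gene wnt11-6 had 2639 reads in RNA-low and 1019 in G1, or 44.4 and 17.1 CPM (1.35, interval 1.06 to 1.69). The posterior ligand gene wntP-2 was at 10.8 CPM in RNA-low and 4.49 CPM in G1 (1.18, interval 0.66 to 1.93), and passed the filter through RNA-low alone. For wntP-3 the values were 14.0 CPM in RNA-low and 10.9 CPM in G1 (0.35, interval -0.06 to 0.80). Among the ligands below 5 CPM, wnt11-3 had 104 reads in RNA-low and 24 in G1, with an interval above equality, while those of wnt1, wnt2-1 and wnt11-1 included equality.

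No receptor or transducer of the Wnt pathway was called. The 5 kept ones stood at 5 CPM or more in both libraries, where 9.23% of all transcripts were called in either direction. Intervals lay above equality for 4 of the 5 kept, against 34.9% of all kept transcripts. Of the 5 not kept, 2 had a higher and 3 a lower level in RNA-low, and no interval lay above equality. The Frizzled receptor gene Fzd-d was at 0.92 (interval 0.59 to 1.31), the Dishevelled gene dvl-b at 0.79 (0.61 to 0.99) and the secreted inhibitor gene sfrp2 at 0.76 (0.38 to 1.23). The beta-catenin gene Bcat-1 had 362 CPM in RNA-low and 243 CPM in G1 (0.58, interval 0.49 to 0.66). The kinase gene nemo was at -0.13 (interval -0.31 to 0.05). The 2 LGR4 transcripts, which encode relatives of R-spondin receptors, were at 0.77 and 0.44, and the 2 kept spondin transcripts at 0.76 and 0.73. All 4 fell short of 2-fold.

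The nou-darake family, FGF receptor-like genes that confine brain tissue to the head in planarians, had no call. Its 3 members were ndk at 34.2 CPM in RNA-low and 19.6 CPM in G1 (0.79, interval 0.51 to 1.12), ndk-4 at 0.60 and ndk-3 at 0.40. In the Hedgehog pathway the receptor genes ptc (0.71, interval 0.53 to 0.90) and smoothened (0.59, interval 0.43 to 0.75) were above equality. The downstream genes SuFu (0.10), fused (-0.20) and gli-1 (-0.22) had intervals that included it. Of all kept transcripts, 34.9% had an interval above equality. No Hedgehog member was called among the 5 kept of 8. These 5 and the 3 nou-darake members stood at 5 CPM or more in both libraries. Among all transcripts at that level in both libraries, 9.23% were called in either direction, so the absence of calls says little on either group.

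In the activin branch the ligand and the rest stood apart. Activin had 81 reads in RNA-low and 525 in G1, or 1.36 and 8.83 CPM (-2.32, interval -3.60 to -1.87), and passed the filter through G1 alone. Its receptor gene activin-receptor-1 was at 0.28, the activin-binding inhibitor gene follistatin at 0.27 and the signal transducer gene smad23 at 0.19. Of the Hippo pathway, mer was at 0.50 and yki, the transcriptional effector, at 0.04.

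Mediator, the complex that links transcription factors to RNA polymerase II, gave 10 kept transcripts and no call, with a median of 0.33. All 10 stood at 5 CPM or more in both libraries. Among all transcripts at that level in both libraries, 9.23% were called in either direction and the median was 0.12. The members of its kinase module, Med12 and cdk8, were at 0.65 (interval 0.51 to 0.81) and 0.15 (interval -0.12 to 0.42). Med8 was at 0.63 and Med1 at 0.54. At the other end, Med23 had 44.8 CPM in RNA-low and 81.9 CPM in G1 (-0.86, interval -1.05 to -0.69), while Med7 was at -0.07 and the others lay between 0.12 and 0.35. Among chromatin genes, the Polycomb gene Bmi-1 was at 26.2 CPM in RNA-low and 12.9 CPM in G1 (0.99, interval 0.66 to 1.40), just short of a call that it reached with 0.1 CPM added in place of 0.5. The remodeller gene chd4 of the NuRD complex was at 611 CPM in RNA-low and 362 CPM in G1 (0.75, interval 0.68 to 0.82).

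Part of the cilia genes were lower in RNA-low. Of 8 named transcripts, 7 were kept, all at 5 CPM or more in both libraries, and 3 were called lower and none higher. Among all transcripts at that level in both libraries, 4.30% were called lower and 4.93% higher. Kif27, a kinesin of motile cilia, had 742 reads in RNA-low and 2258 in G1, or 12.5 and 38.0 CPM (-1.57, interval -1.91 to -1.30). The intraflagellar transport genes IFT172 (5.86 CPM in RNA-low, 15.1 CPM in G1, -1.29) and IFT52 (5.17 CPM in RNA-low, 12.0 CPM in G1, -1.14) were also called lower. IFT88, of the same transport complex, had nearly the same level in both libraries, at 5.28 CPM in RNA-low and 5.25 CPM in G1. The kinesin-II motor genes that carry this transport were not called, with Kif3B at 0.80 (interval 0.61 to 1.01) and Kif3A at 0.17 (interval -0.12 to 0.47). The dynein regulator gene lis1 was at 0.03, and RPGRIP1L, of the ciliary transition zone, was below 5 CPM with an interval under equality (-2.17 to -0.38). The epidermal progeny described next were lower in the same library, and their part in the cilia values was not tested.

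**Figure D4:**
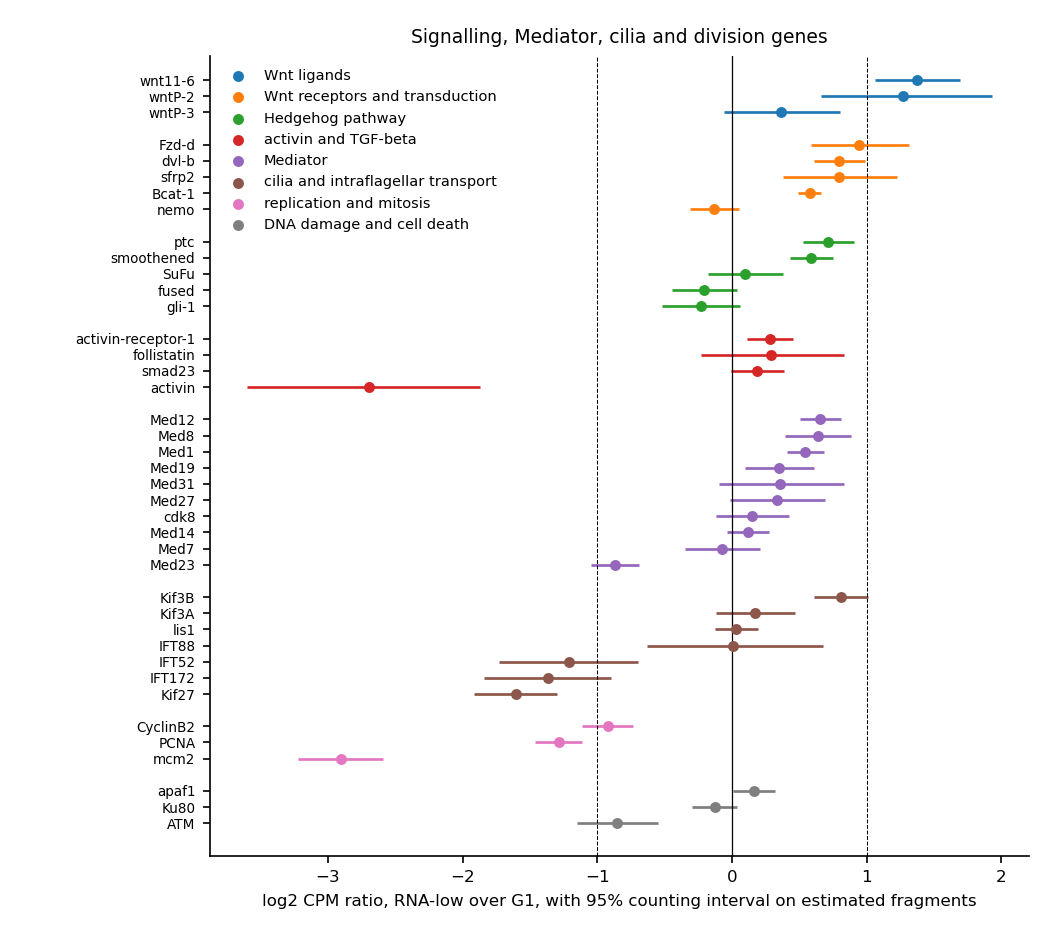
Log2 CPM ratio of RNA-low over G1, without added 0.5 CPM, with its 95% counting interval on estimated fragments for the kept members of 8 gene lists, and dashed lines at 2-fold. The ligands wnt11-6 and wntP-2 lie right of the right line, while activin, Kif27, IFT172, IFT52, PCNA and mcm2 lie left of the left one.

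Early epidermal progeny transcripts were the lowest named group in RNA-low. All 18 named members were called lower, against 9.78% of all kept transcripts, with a median of -3.97. Of these, 9 passed the filter in both libraries and 9 through G1 alone. The members of each family are close relatives whose reads could have been divided between them. Such a division affects single members more than the family sums, which mainly reflect the most abundant members. Members of the prog-1 family differed in direction between S/G2/M and PM, the other bulk gates. There prog-1 stood at 325 CPM in S/G2/M and 1405 CPM in PM, and prog-1e at 77.6 and 18.8 CPM. The prog-1 family summed to 369 CPM in RNA-low and 4047 CPM in G1 (-3.45, interval -3.50 to -3.41), over 11 members. The prog-2 family summed to 1491 CPM in RNA-low and 25610 CPM in G1 (-4.10, interval -4.12 to -4.08), over 7 members.

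The most abundant members lay close together. Prog-2 had 22940 reads in RNA-low and 429063 in G1 (-4.22), and prog2c had 21739 in RNA-low and 461505 in G1 (-4.41). In the other family, prog-1 had 11603 reads in RNA-low and 116575 in G1 (-3.32), and prog1a had 9688 in RNA-low and 104640 in G1 (-3.43). The low members spread more widely, from prog-1i (187 reads in RNA-low, 1180 in G1, -2.48) to prog-1h (7 reads in RNA-low, 4310 in G1, -6.88). Without the added 0.5 CPM the interval of prog-1h was -13.28 to -7.10. Prog-1e had 0 reads in RNA-low and 1655 in G1, and the upper bound of its interval was -6.47. For prog-1d there were 2 reads in RNA-low and 477 in G1, with an interval whose upper bound was -4.35. The later epidermal marker vim-1 was lower as well, at 120 reads in RNA-low and 978 in G1 (-2.75, interval -3.74 to -2.37).

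**Figure D5:**
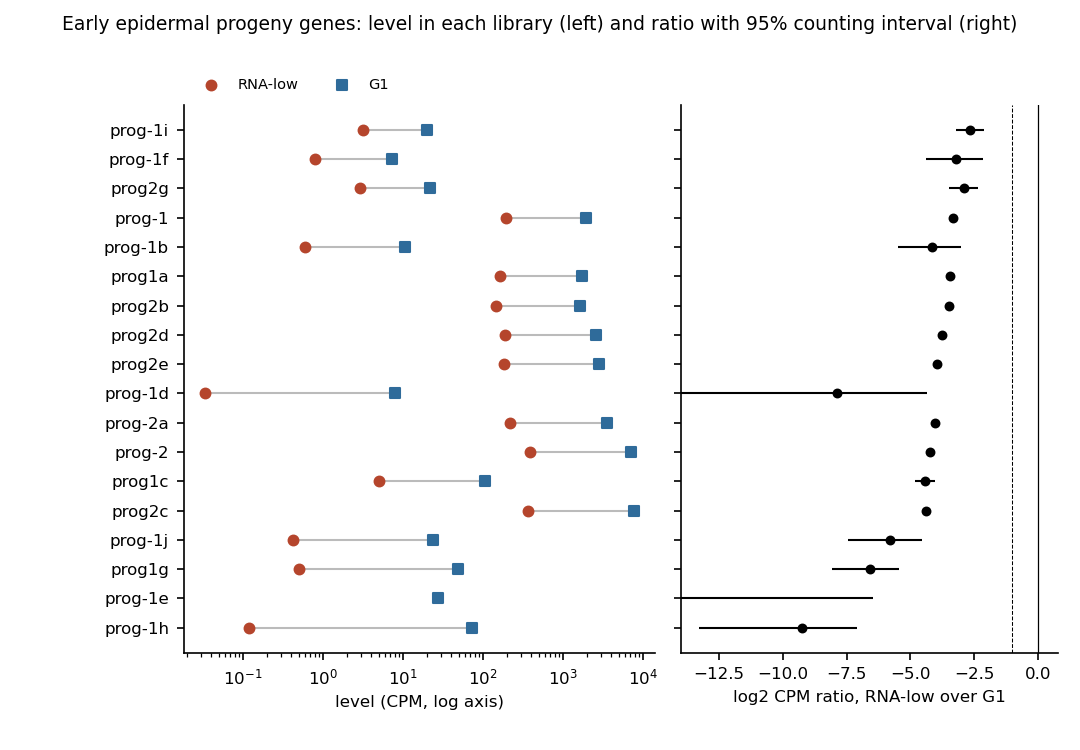
Level in CPM in RNA-low (circles) and G1 (squares, log axis) of the 18 early epidermal progeny transcripts, with the log2 CPM ratio, without added 0.5 CPM, and its 95% counting interval at the right, where a dashed line marks 2-fold. Prog-1e had 0 reads in RNA-low and so no circle, and the intervals of prog-1d and prog-1e run past the left edge; every upper bound lies below the dashed line.

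Of 3 kept replication and mitosis genes, 2 were called lower in RNA-low, and none of 3 kept DNA damage and death genes was called. All of these stood at 5 CPM or more in both libraries. Among all transcripts at that level in both libraries, 4.30% were called lower and 9.23% in either direction. These genes are too few for a statement on either group. The helicase subunit gene mcm2 had 542 reads in RNA-low and 4054 in G1 (-2.84, interval -3.22 to -2.59), and the sliding clamp gene PCNA had 2421 in RNA-low and 5907 in G1 (-1.28, interval -1.46 to -1.11). CyclinB2, a mitotic cyclin gene, was at -0.91 (interval -1.11 to -0.73), short of a call that it reached when scaled by library totals. The mitotic kinase gene PLK had 23 reads in RNA-low and 86 in G1, too few for the filter. Of the DNA damage and death genes, the kinase gene ATM was at -0.83 (interval -1.15 to -0.55), the end-joining gene Ku80 at -0.13 and the apoptosome gene apaf1 at 0.16.

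Among the neoblast genes, the PIWI transcripts and bruli differed in direction without a call. The levels of piwi-3 were 2261 CPM in RNA-low and 1537 CPM in G1 (0.56, interval 0.52 to 0.59), and piwi-2 was at 0.40 and piwi-1 at 0.28. Bruli, which encodes an RNA-binding protein needed for neoblast maintenance, was at 292 CPM in RNA-low and 383 CPM in G1 (-0.39, interval -0.47 to -0.31). The PIWI pathway gene tdrd112, of the Tudor family, was also on the lower side (-0.30, interval -0.40 to -0.20).

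A few named transcripts outside these groups were called. Dll-1 was at 24.6 CPM in RNA-low and 3.80 CPM in G1 (2.54, interval 2.07 to 3.38), whereas DLL-2 had 0.77 CPM in RNA-low and 6.21 CPM in G1 (-2.40, interval -4.23 to -1.93). Dll-1 passed the filter through RNA-low alone and DLL-2 through G1 alone. The gap junction gene innexin-1 had 3534 reads in RNA-low and 896 in G1 (1.95, interval 1.66 to 2.31). Reticulocalbin-1, which encodes a calcium-binding protein of the endoplasmic reticulum, had 11716 reads in RNA-low and 31948 in G1 (-1.44, interval -1.52 to -1.37). The GTPase regulator genes NF1 and IQGAP were at 0.36 and 0.47.

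The extremes of the comparison were unnamed on the higher side. The 14 transcripts at least 16-fold higher in RNA-low, none of them named, summed to 11376 CPM in RNA-low and 46.5 CPM in G1. Of these, 5 were at least 256-fold higher and summed to 9397 CPM in RNA-low and 8.39 CPM in G1, with 17.6 CPM in S/G2/M and 30.8 CPM in PM, the other bulk gates of the series. The labels do not spell out PM. SmedASXL_074105 had 155971 reads in RNA-low and 53 in G1 (10.88), and SmedASXL_071005 had 101417 in RNA-low and 98 in G1 (9.63). On the lower side 68 transcripts were at least 16-fold lower in RNA-low, of which 8 were named, all of them early epidermal progeny. The lowest unnamed ones with at least 50 CPM were SmedASXL_009682, with 64 reads in RNA-low and 16024 in G1 (-7.42), and SmedASXL_018040, with 15 in RNA-low and 6895 in G1 (-7.27). Both stood higher in S/G2/M, at 753 and 157 CPM, than in PM, at 103 and 29.8 CPM.

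The transcripts called between RNA-low and G1 were also described in the S/G2/M and PM libraries, which enter the comparison only through the scaling. Those libraries had about 22 and 26 reads per starting fragment, so calls between them were made with intervals on fragments. Of all 13002 transcripts with at least 5 CPM in S/G2/M or PM, 46.1% were called in either direction, 21.5% higher and 24.5% lower in S/G2/M. The sets below come from the 10900 of these that were also kept in RNA-low against G1. Of those, 22.8% were called higher and 17.9% lower in S/G2/M. Of the transcripts called higher in RNA-low, 602 reached that level, and 8.80% of these were called higher and 44.9% lower in S/G2/M against PM. Among the 1081 called lower in RNA-low, 26.0% stood higher in S/G2/M and 36.1% lower, and among the 9217 not called, 23.3% were higher and 14.0% lower.

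These sets differed in level, with a median in S/G2/M and PM of 4.01 and 9.10 CPM for the transcripts called higher in RNA-low, 12.2 and 12.5 CPM for those called lower, and 24.8 and 20.2 CPM for those not called. At a mean of 20 CPM or more in S/G2/M and PM, 14.5% of the 165 called higher in RNA-low were higher and 24.8% lower in S/G2/M. At the same level the shares were 31.8% and 40.1% of the 459 called lower in RNA-low, and 27.6% and 7.80% of the 5465 not called. In the gates compared, the median level of the transcripts called higher was 20.6 CPM in RNA-low and 6.74 CPM in G1, and that of the transcripts called lower was 3.25 CPM in RNA-low and 13.5 CPM in G1.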

How the data were processed

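Whole-number counts of reads per transcript were deposited by the authors for the bulk libraries, without normalization. The submitters' processing notes name bcl2fastq 1.8.3 and Bowtie2; how reads were counted, and against which transcripts, was not given in the sources used here. The RNA-low library was matched to column G0, since the single cells of that gate carry G0 in their headers and the remaining 3 columns name their own gates. Counts were scaled over the 4 bulk libraries by the trimmed mean of M values in edgeR 4.0.16 (R 4.3.3). Kept transcripts had at least 5 CPM in either library. Calls needed at least 2-fold, after adding 0.5 CPM, and an exact 95% conditional binomial (Clopper-Pearson) interval on reads without equality (SciPy 1.17.1). Calls on estimated fragments were also made. The calling was also run on simulated reads that held counting error alone. These had no duplicate reads and no variation between libraries, so they cannot test the calls against either. All columns of the bulk table were read, and the single-cell table was not used here. Any named transcript could be described, grouped by the role of its name; at most 2 unnamed ones were given per direction, by the size of the ratio at 50 CPM or more. The members and gene lists were chosen with earlier results of these data known. Levels of different genes were not compared, since no transcript lengths were used. The values of 1 transcription factor transcript, which the counts include, are not reported here.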

Additional observations from a re-analysis of the deposited data

How the results depend on the processing

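With 1 library per gate, no replicate could be left out. No paired analysis was possible because each gate has 1 library. Without the filter on low levels 3279 transcripts were called higher and 4102 lower in RNA-low; at 50 CPM or more the counts were 208 and 176, and at 4-fold 111 and 439. The 7 other alternatives kept both counts within 1.5 times. Median-of-ratios scaling gave 790 higher and 1156 lower, and ended the call on lmx2. Library totals gave 738 and 1344, totals without ribosomal RNA 840 and 1537, and both added CyclinB2 to the lower calls. Scaling over RNA-low and G1 alone gave 884 and 1219. An added 1 CPM gave 770 and 1096, and 0.1 CPM gave 913 and 1205, with Bmi-1 called higher. Intervals on fragments gave the same 2010 calls. No kept transcript past 2-fold had an interval that included equality, on reads or on fragments. The 2-fold threshold alone thus set the calls, and their identity on fragments is no further check. No called named transcript turned direction under the scalings and pseudocounts tried, while IFT88, lis1 and yki, all near equality, changed sign with library totals, and IFT88 with median-of-ratios scaling too. Depth limits transcripts below 10 CPM most. For S/G2/M against PM, intervals on reads, in place of those on fragments chosen after seeing the data, called 10.3% higher and 47.0% lower in S/G2/M among the transcripts called higher in RNA-low.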

Other observations

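The 51 named transcripts below 5 CPM in both libraries were left out of the comparison's calls. Their interval lay above equality for 9, or 17.6%, against 2.58% of all transcripts with reads that were not kept. The 9 were the 7 transcription factors given above together with wnt11-3 and gli-3. It lay below equality for 4, or 7.84%, against 4.91%. Their median level in the higher library was above the 0.421 CPM of all transcripts not kept. The 4 below equality were PLK, RPGRIP1L and 2 spondin transcripts. Gli-3, a transcription factor gene of the Hedgehog pathway, had 158 reads in RNA-low and 62 in G1, with a log2 ratio of 1.03 (interval 0.09 to 2.87). The spondin transcripts that were lower, at -1.31 and -1.41, contrast with the 2 kept ones at 0.76 and 0.73.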
